A study of Homo sapiens with 6 samples.

Results

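The genes described here encode ubiquitin-conjugating enzymes, called E2 enzymes. They were chosen as every probe set that names exactly 1 gene symbol in the platform's gene table, where that symbol begins with UBE2 followed by a letter. There were 29 such genes among 18132, read by 77 of 44988 single-symbol probe sets. Each gene is given by its brightest probe set, the one with the highest mean over all 6 arrays, with its other probe sets beside it. Other genes of the family, among them UBE2D1, UBE2D2, UBE2D3, UBE2L3, UBE2M and UBE2W, were not analysed here.

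Ubiquitin is a small protein that cells attach to other proteins. An E1 enzyme activates it, an E2 enzyme carries it on a cysteine, and an E3 ligase chooses the protein that receives it. The E2 enzyme often decides which chain is built: K48 chains, named for the lysine of ubiquitin through which they are linked, mostly send a protein to the proteasome, and K63 chains mostly serve signalling and DNA repair. In dividing cells the anaphase-promoting complex (APC/C), a large E3 ligase, ends mitosis by marking cyclin B and other proteins for destruction, and UBE2C and UBE2S are its dedicated E2 enzymes in human cells. UBE2C attaches the first ubiquitins and UBE2S extends them.

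Total RNA came from cells of the colorectal carcinoma line HCT-116, described in the labels as having high Aurora-A and PLK-1, on 3 arrays of cells given the compound coded AAPK and 3 arrays of cells given the vehicle DMSO. The treatment field gives 10 µM and 48 h for every sample, DMSO included, and was read as the concentration of AAPK. The series title names a dual inhibitor of the kinases Aurora A and PLK-1 and asks for its effect on expression; that AAPK is this inhibitor is taken from the title. Nothing in the labels says that the 3 samples of a group were grown separately. The p-values therefore cover the spread among these arrays alone, part or all of which may be technical.

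Median log2 signal over all probe sets ran from 6.46 to 6.47 on the AAPK arrays and from 6.48 to 6.50 on the DMSO arrays. Correlations over all probe sets were at least 0.9976 within a group and at most 0.9954 between groups. The epithelial and colon markers were mixed for a line with this label. KRT8 and KRT18, keratins of simple epithelia, averaged 11.93 and 12.48 on the log2 scale over the 6 arrays. The adhesion molecule EPCAM, at 3.42, and E-cadherin, CDH1, at 5.11, lay under the 25th percentile of gene signal (5.88), as did KRT19, CDX2, VIL1 and LGALS4. VIM, the mesenchymal filament vimentin, added after its value was seen, averaged 12.52. Of the markers of other cell types, 3 of 5 for fibroblasts, 4 of 4 for endothelium and 2 of 4 for blood lay at or above that percentile, and by limma 0 of these 13 differed between AAPK and DMSO, with 1, VWF, at an unadjusted p under 0.05; of the epithelial markers, KRT8 was at 0.17 (adjusted p = 0.0402), a call lost without any array other than AAPK replicate 3 (adjusted p from 0.0781 to 0.136). The cells are therefore called HCT-116 only as labelled.

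UBE2S and UBE2C had the highest rises of the 29 E2 genes in AAPK, 1.45-fold and 1.42-fold. In all, 10 E2 genes rose and 2 fell at a limma adjusted p under 0.05, where 8.11% of all 18132 genes rose and 7.26% fell. The other 8 that rose were UBE2K, UBE2G2, UBE2N, UBE2V2, UBE2T, UBE2F, UBE2E3 and UBE2V1, and those that fell were UBE2H and UBE2Q1. The median log2 change was 0.07 over the 29 E2 genes and -0.02 over all genes. Of the 24 E2 genes at or above the 25th percentile of signal 10 rose and 2 fell, where 10.5% of all genes that bright rose and 8.79% fell. The 5 dimmer ones had changes from -0.11 to 0.10, with overlapping groups in each.

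**Figure D1:**
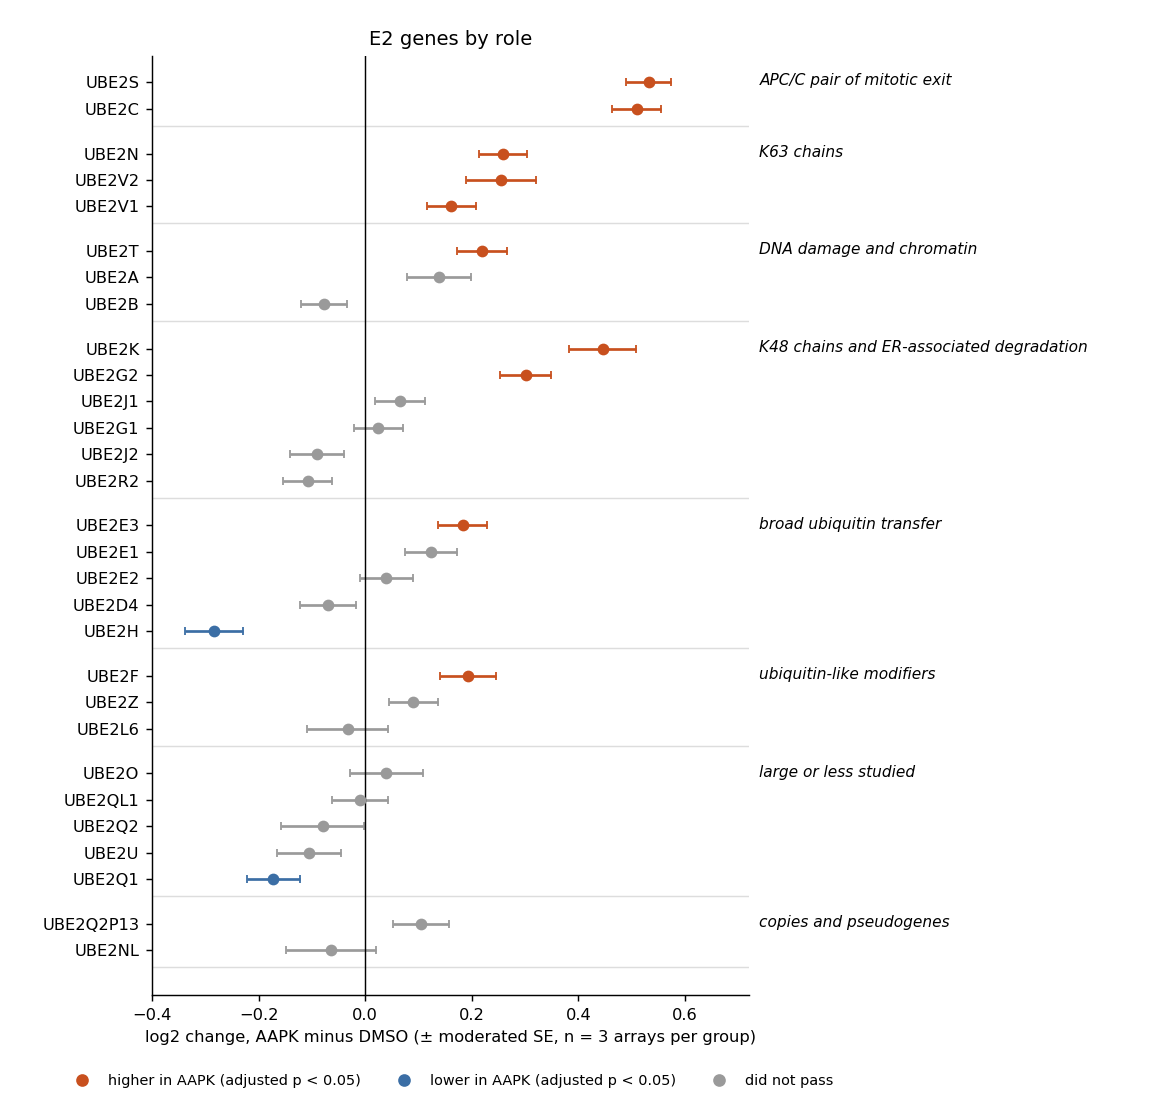
Log2 change of each of the 29 E2 genes, AAPK minus DMSO, with its moderated standard error (3 arrays per group), grouped by role. Orange points passed the threshold upward (10 genes), blue points downward (2 genes) and grey points did not pass; UBE2S and UBE2C stand farthest to the right.

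The AAPK arrays lay wholly above the DMSO arrays for 12 E2 genes and wholly below for 4, where the same held for 14.9% and 17.1% of all genes. These 16 are the 12 past the threshold with UBE2E1 and UBE2Z above and UBE2B and UBE2R2 below. With quantile normalisation 7 E2 genes rose and 3 fell, and with each array centred on its median 10 rose and 1 fell. The shares over all genes under these scalings are not given here, so only the counts can be compared. The count of E2 genes that rose was 6 without DMSO replicate 1 and 6 without DMSO replicate 2, and 7 or 8 without any other array. The count that fell was 1 without AAPK replicate 1, AAPK replicate 3, DMSO replicate 1 or DMSO replicate 3.

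UBE2S, which adds K11-linked ubiquitin to chains that UBE2C has begun, had log2 signals of 10.31, 10.33 and 10.30 on the AAPK arrays, against 9.81, 9.76 and 9.78 on the DMSO arrays. Every AAPK array stood above every DMSO array, and the spread within a group was small beside the gap. The log2 change was 0.53 ± 0.04 (SE, n = 3 per group; adjusted p = 2.81e-05). UBE2S had a single probe set.

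UBE2C had log2 signals of 11.14, 11.16 and 11.05 on the AAPK arrays, against 10.60, 10.61 and 10.61 on the DMSO arrays. The DMSO arrays were nearly equal, and AAPK replicate 3 was the lowest of its group while still far above them. The log2 change was 0.51 ± 0.05 (adjusted p = 6.08e-05), and only 82 of the 18132 genes, 0.452%, rose by as much or more. All 4 UBE2C probe sets passed, with log2 changes from 0.51 to 0.63. Both calls held under all 17 alternatives tried, with log2 changes from 0.46 to 0.55 for UBE2S and from 0.45 to 0.55 for UBE2C. The alternatives that choose or average probe sets could not alter the signal of UBE2S, which had a single one. In bulk RNA, more cells at the stage that makes these transcripts and more transcript per cell cannot be told apart.

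The pair was then set against the other 22 E2 genes at or above the 25th percentile of signal, array by array. The log2 signal of UBE2C minus the mean of the 22 was 2.72, 2.68 and 2.62 on the AAPK arrays, against 2.23, 2.27 and 2.21 on the DMSO arrays. For UBE2S the same difference was 1.89, 1.86 and 1.87 on the AAPK arrays, against 1.44, 1.43 and 1.38 on the DMSO arrays. Neither gene's groups overlapped, so both rose relative to the rest of the family on every AAPK array. The gap grew by 0.43 for UBE2C and by 0.46 for UBE2S. In each case the two-sided exact permutation p was 0.1, which is the smallest that 3 arrays against 3 can give (adjusted 0.143 over 10 such differences between E2 genes). Of the 22 themselves, 8 rose and 2 fell, with a median log2 change of 0.08.

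UBE2C and UBE2S could not be separated from each other. The log2 signal of UBE2C minus UBE2S was 0.83, 0.82 and 0.75 on the AAPK arrays and 0.79, 0.84 and 0.84 on the DMSO arrays, with overlapping groups. The difference of the changes was -0.02 (exact permutation p = 0.5). Averaging all probe sets of a gene gave 0.02.

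**Figure D2:**
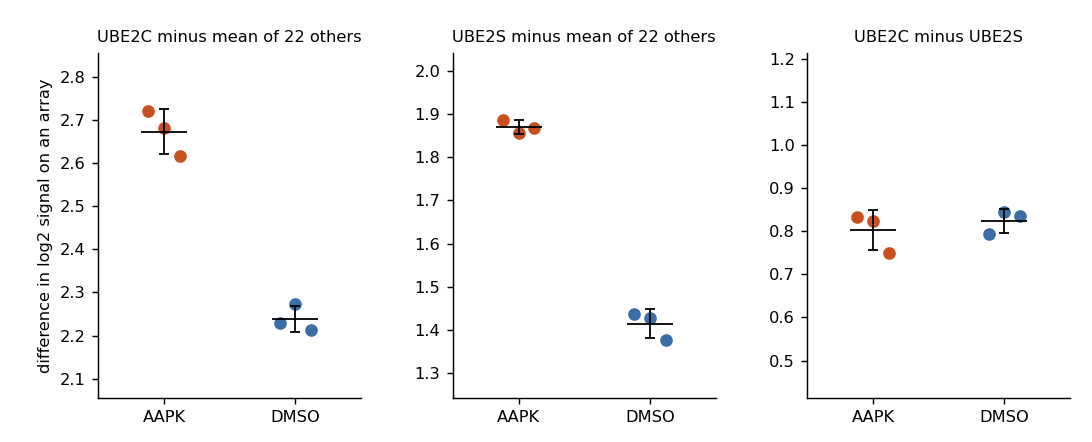
Difference in log2 signal on each array for UBE2C minus the mean of 22 other E2 genes, UBE2S minus the same mean, and UBE2C minus UBE2S; points are arrays, and bars are the mean ± SD of 3. The AAPK arrays lie above the DMSO arrays in the first 2 panels, and the groups overlap in the last.

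The promoters of UBE2S and UBE2T, an E2 enzyme of DNA repair described below, are shown. UBE2C, planned beside UBE2S, matched no promoter, and UBE2T, which also rose, was shown in its place. Transcripts of mitosis are often controlled by short elements near the start site. The elements searched, on both strands, were TTTGAA and TTCGAA, forms of the cell cycle homology region, and CCAAT, the box bound by the factor NF-Y; TTCGAA reads the same on both strands, and no matches in these promoters overlapped. The sequences are from RefSeq, build GRCh38.p14, and give the 250 bases before the annotated start, 5′ to 3′ in the direction of the gene, with matches in capitals. UBE2S lies on the minus strand at chr19:55407789-55408038 and UBE2T on the minus strand at chr1:202341937-202342186.
UBE2S: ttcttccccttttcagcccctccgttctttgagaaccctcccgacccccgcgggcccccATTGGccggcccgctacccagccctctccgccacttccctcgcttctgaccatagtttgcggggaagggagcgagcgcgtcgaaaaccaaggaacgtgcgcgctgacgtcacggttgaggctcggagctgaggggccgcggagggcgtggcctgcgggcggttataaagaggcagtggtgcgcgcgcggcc
UBE2T: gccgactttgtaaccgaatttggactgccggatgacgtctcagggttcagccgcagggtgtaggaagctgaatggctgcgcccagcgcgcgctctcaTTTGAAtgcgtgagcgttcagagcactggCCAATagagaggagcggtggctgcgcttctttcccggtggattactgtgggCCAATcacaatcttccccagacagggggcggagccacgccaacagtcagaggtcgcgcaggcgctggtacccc

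UBE2S held 1 CCAAT box, on the reverse strand, at 191 to 187 bases before the start. UBE2T held TTTGAA at 153 to 148 bases before the start and CCAAT at 124 to 120 and at 73 to 69. In the table's full windows of 250 bases before to 50 after the start, TTTGAA was found in 15.2% of 35116 promoters, TTCGAA in 1.45% and CCAAT in 34.6%. Of the 29 E2 genes, 22 matched a promoter in the table; UBE2B, UBE2C, UBE2H, UBE2NL, UBE2Q1, UBE2Q2P13 and UBE2V2 did not. TTTGAA was found in 3 of the 22 genes, UBE2F, UBE2T and UBE2U, TTCGAA in 0, and CCAAT in 7, which were those 3 with UBE2E1, UBE2E3, UBE2S and UBE2Z. Some of the 22 have more than 1 promoter, and the shares above count promoters. Of the 29 promoters of these genes, 3 held TTTGAA, 0 TTCGAA and 7 CCAAT. UBE2K, UBE2G2 and UBE2N, which rose more than UBE2T, held none of these elements. Whether the elements bear on the changes was not tested. A match describes these letters and is not evidence that a factor binds.

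UBE2T works with the ligase FANCL to attach a single ubiquitin to FANCD2, a step of the Fanconi anaemia repair of DNA crosslinks. Its log2 signals were 10.21, 10.31 and 10.31 on the AAPK arrays, against 10.07, 10.03 and 10.08 on the DMSO arrays. All AAPK arrays were above all DMSO arrays, by less than for UBE2C. The log2 change was 0.22 ± 0.05 (adjusted p = 0.0100), and the call held under all 17 alternatives. UBE2T had a single probe set, so the alternatives that choose or average probe sets could not alter its signal. FANCL rose by 0.26 (adjusted p = 0.00479), while USP1, the enzyme that removes ubiquitin from FANCD2 and from the clamp PCNA, fell by 0.69 on the log2 scale (adjusted p = 4.95e-06). USP1 had 11.20, 11.18 and 11.23 on the AAPK arrays, against 11.87, 11.90 and 11.91 on the DMSO arrays, which lay far apart.

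UBE2A and UBE2B are the human counterparts of yeast Rad6, which ubiquitylates PCNA with RAD18 and histone H2B with RNF20 and RNF40. UBE2A, on its brightest probe set, had 9.28, 9.31 and 9.40 on the AAPK arrays and 9.21, 9.08 and 9.28 on the DMSO arrays, so the groups overlapped. Its log2 change of 0.14 did not pass (adjusted p = 0.167), but its other 2 probe sets, at 0.22 and 0.18, did (adjusted p = 0.00989 and 0.0433 over all probe sets). UBE2B had a log2 change of -0.08 and did not pass, with -0.13 to 0.03 over its 4 probe sets. UBE2A minus UBE2B was higher on every AAPK array, by 0.22 (exact permutation p = 0.1, adjusted 0.143). RAD18, RNF20 and RNF40 stood at -0.08, -0.06 and 0.02, short of the threshold.

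The enzymes of K63 chains all rose past the threshold, but only the UBE2N call held under every alternative. UBE2N is the catalytic subunit, and UBE2V1 and UBE2V2 are partners that lack the active cysteine and orient the incoming ubiquitin. UBE2N had 9.29, 9.34 and 9.28 on the AAPK arrays, against 9.03, 9.01 and 9.08 on the DMSO arrays. The groups were well apart, with a log2 change of 0.26 ± 0.04 (adjusted p = 0.00313) that held under all 17 alternatives. Its other 2 probe sets were at 0.23, which passed, and 0.01, which did not.

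UBE2V2 had 9.14, 9.05 and 9.27 on the AAPK arrays, against 8.89, 8.82 and 8.98 on the DMSO arrays. The groups did not overlap, although the gap between the lowest AAPK and the highest DMSO array was narrow. The log2 change was 0.25 ± 0.06 (adjusted p = 0.0237), and the second UBE2V2 probe set was at 0.42. UBE2V1 changed by 0.16 ± 0.05 (adjusted p = 0.0397) on its only single-symbol probe set. The name of that set ends in _x_at, the Affymetrix mark for probes that may also match other sequences. UBE2V2 minus UBE2V1 had overlapping groups (difference 0.09, exact permutation p = 0.5).

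Of the 3, the calls of UBE2V1 and UBE2V2 were each lost when any 1 of several arrays was left out. The UBE2V2 call was lost without AAPK replicate 1 (adjusted p = 0.0605), AAPK replicate 3 (0.0732), DMSO replicate 1 (0.0713) or DMSO replicate 2 (0.0818). The UBE2V1 call was lost without any array other than AAPK replicate 3, at adjusted p from 0.0614 to 0.136. Both were also lost with quantile normalisation (adjusted p = 0.0658 for UBE2V2 and 0.0626 for UBE2V1). Among genes that use or remove these chains, the ligase gene TRAF6 was at -0.13 and the deubiquitinase gene CYLD at -0.14, and neither passed. BRCC3, which cleaves K63 chains, rose by 0.26 (adjusted p = 0.0292, and 0.0670 to 0.0812 without any 1 AAPK array). OTUD7B, a deubiquitinase that prefers K11 chains, the kind UBE2S adds, and not K63 chains, fell by 0.30 (adjusted p = 0.00241).

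**Figure D3:**
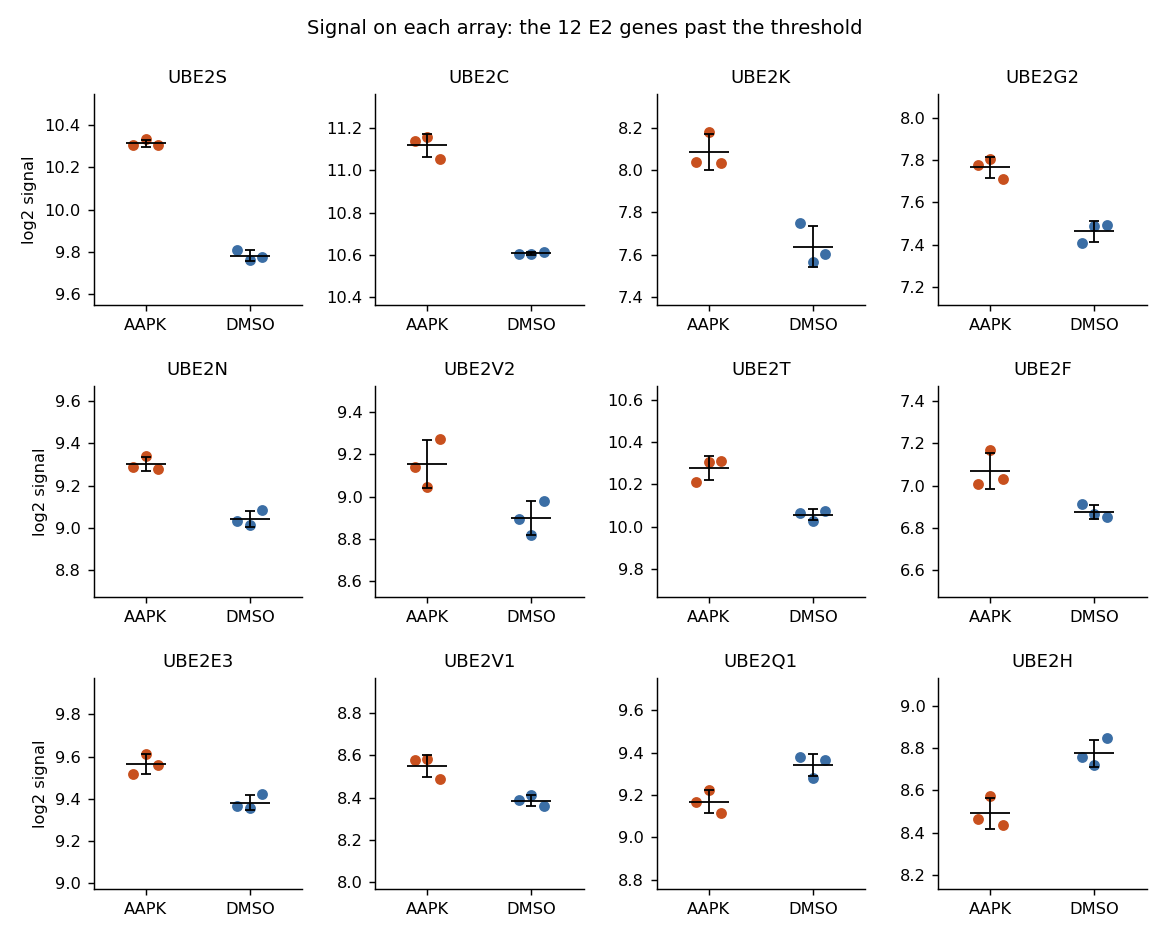
Log2 signal on each array for the 12 E2 genes past the threshold, AAPK on the left and DMSO on the right of each panel, with the mean ± SD of 3 arrays; every panel spans the same height of 1 log2 unit. The groups are apart in all 12 panels and the gap is widest for UBE2S, UBE2C and UBE2K.

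UBE2K, which builds K48 chains without needing an E3 ligase in the test tube, had the next largest rise after UBE2C. Its log2 signals were 8.04, 8.18 and 8.03 on the AAPK arrays, against 7.75, 7.56 and 7.60 on the DMSO arrays. The groups were apart by more than the spread within either. The log2 change was 0.45 ± 0.06 (adjusted p = 9.11e-04). All 5 of its probe sets had positive changes, from 0.12 to 0.45, and 2 of them passed. On the probe set with the median change the value was 0.18 and did not pass (adjusted p = 0.0982).

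UBE2G2, UBE2J1 and UBE2J2 serve the degradation of misfolded proteins of the endoplasmic reticulum. UBE2G2 had 7.78, 7.80 and 7.71 on the AAPK arrays, against 7.41, 7.49 and 7.49 on the DMSO arrays, which did not overlap. The log2 change was 0.30 ± 0.05 (adjusted p = 0.00194) on a probe set whose name, like that of UBE2V1, ends in _x_at. The other 3 were at 0.04 to 0.10 and did not pass. UBE2J1 minus UBE2J2 was higher on every AAPK array, by 0.16 (exact permutation p = 0.1). UBE2J1 and UBE2J2, which are anchored in the membrane, were at 0.07 and -0.09 and did not pass. All 5 UBE2J2 probe sets were below 0, whereas UBE2J1 had 2 of 4 above it. MARCHF6, an E3 ligase of that membrane that works with UBE2G2 and UBE2J2, rose by 0.17 (adjusted p = 0.0224), and SYVN1, another, was at 0.01. The MARCHF6 call was lost without AAPK replicate 1, AAPK replicate 2, DMSO replicate 1 or DMSO replicate 2 (adjusted p from 0.0599 to 0.0852) and with quantile normalisation (0.11, adjusted p = 0.114). It was also lost on the MARCHF6 probe set with the median change (0.06, adjusted p = 0.572).

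UBE2G1 and UBE2R2 extend K48 chains on substrates of cullin ligases. UBE2G1 was at 0.02 on its brightest probe set and at 0.33 on the other, which passed (adjusted p = 0.00470 over all probe sets). UBE2R2 was at -0.11 on its brightest probe set (adjusted p = 0.165) and at -0.20 on the other, which passed downward (adjusted p = 0.0213). Its closest relative CDC34, whose symbol lies outside the family name, was at 0.02. For these genes the result depends on which probe set is read, and UBE2G2 minus UBE2G1, higher on every AAPK array by 0.28 (exact permutation p = 0.1), is subject to the same choice.

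Of the broadly acting enzymes, UBE2E3 rose and UBE2H fell. UBE2E3 had 9.52, 9.61 and 9.56 on the AAPK arrays and 9.37, 9.36 and 9.42 on the DMSO arrays, a log2 change of 0.18 ± 0.05 (adjusted p = 0.0230), with 0.07 on its other probe set. Its paralogs UBE2E1 and UBE2E2 were at 0.12 and 0.04, and the UBE2E1 arrays did not overlap although it did not pass (adjusted p = 0.128). UBE2E3 minus UBE2E2 was higher on every AAPK array, by 0.14, and UBE2E3 minus UBE2E1 by 0.06 (exact permutation p = 0.1 for each). The UBE2E3 call was lost with quantile normalisation (0.12, adjusted p = 0.102) and without AAPK replicate 2, AAPK replicate 3, DMSO replicate 1 or DMSO replicate 2 (adjusted p from 0.0517 to 0.0881). UBE2D4, of the promiscuous UBE2D group, was at -0.07 on its single probe set and did not pass.

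UBE2H is the E2 enzyme of the CTLH ligase, in which MAEA and RMND5A form the catalytic core. UBE2H had 8.47, 8.57 and 8.43 on the AAPK arrays, against 8.76, 8.72 and 8.85 on the DMSO arrays. All AAPK arrays were below all DMSO arrays, and the log2 change was -0.28 ± 0.05 (adjusted p = 0.00552). All 5 probe sets were below 0, from -0.28 to -0.05, but only the brightest passed, and the mean of the 5 was -0.15 (adjusted p = 0.0655). MAEA rose by 0.28 (adjusted p = 0.00683), and RMND5A was at -0.08 and did not pass.

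Some E2 enzymes carry proteins that resemble ubiquitin. UBE2F passes NEDD8 to the cullin CUL5 with the help of RNF7. It had 7.01, 7.17 and 7.03 on the AAPK arrays and 6.91, 6.87 and 6.85 on the DMSO arrays, a log2 change of 0.19 ± 0.05 (adjusted p = 0.0336). Its 7 probe sets ran from -0.17 to 0.32, and the 3 that passed all end in _x_at. The brightest probe set not so marked was at 0.02 (adjusted p = 0.902). The call was also lost without AAPK replicate 2 (0.14, adjusted p = 0.114) and without DMSO replicate 1, 2 or 3 (adjusted p = 0.0638, 0.0838 and 0.0916).

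Other genes of the NEDD8 pathway moved as follows. NEDD8 had 10.94, 10.93 and 10.93 on the AAPK arrays, against 10.72, 10.76 and 10.72 on the DMSO arrays, and rose by 0.20 (adjusted p = 0.00866). NAE1, a subunit of the NEDD8 E1 enzyme, rose by 0.22 (adjusted p = 0.0151), and its partner UBA3 was at 0.01. The NAE1 call was lost without DMSO replicate 1 (adjusted p = 0.0502) or DMSO replicate 2 (0.0516), and that of NEDD8 with quantile normalisation (0.13, adjusted p = 0.0622). Among the cullins, which NEDD8 activates, CUL3 rose by 0.57, CUL4A by 0.34, CUL1 by 0.25 and CUL2 by 0.23, while CUL5 was at 0.01 and RNF7 at 0.14, neither past the threshold. The CUL3 rise depends on the probe set read, since that with the median change was at -0.04 (adjusted p = 0.805). COPS5, the subunit of the COP9 signalosome that removes NEDD8 from cullins, rose by 0.24 (adjusted p = 0.00839).

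UBE2Z, which takes ubiquitin only from the E1 enzyme UBA6, was at 0.09 and did not pass; UBA6 was at 0.04. All 4 UBE2Z probe sets were above 0, but 2 of them held identical values and count once. UBE2L6, the E2 enzyme of the interferon-induced modifier ISG15, was dim (4.58 ± 0.17 in AAPK and 4.61 ± 0.04 in DMSO on the log2 scale, SD, n = 3 each), with a change of -0.03. Neither ISG15, at 0.10, nor its E1 enzyme UBA7, at -0.10, passed.

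Of the large or less studied members, UBE2Q1 fell. It had 9.17, 9.22 and 9.11 on the AAPK arrays and 9.38, 9.28 and 9.36 on the DMSO arrays, a log2 change of -0.17 ± 0.05 (adjusted p = 0.0404). The groups were apart by a small margin, the second probe set was at -0.08, and the call was lost without AAPK replicate 1, AAPK replicate 3, DMSO replicate 1 or DMSO replicate 3 (adjusted p from 0.105 to 0.147). Centring each array on its median also ended it (-0.15, adjusted p = 0.0758). UBE2Q2 was at -0.08 on its brightest probe set, and 1 of its 5 probe sets passed, at -0.20 (adjusted p = 0.0412 over all probe sets). UBE2Q1 minus UBE2Q2 had overlapping groups (difference -0.09, exact permutation p = 0.6). UBE2O, a large enzyme with both E2 and E3 activity, was at 0.04.

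UBE2QL1, UBE2U, UBE2NL and UBE2Q2P13 lay under the 25th percentile of signal and did not pass. UBE2NL is a close copy of UBE2N, so probes of either may read both. Over the 17 E2 genes that did not pass, the 95% intervals of the log2 change lay between -0.25 and 0.27. Before adjustment over all genes, those of UBE2A (0.006 to 0.27), UBE2E1 (0.015 to 0.23) and UBE2R2 (-0.21 to -0.005) did not include 0.

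**Figure D4:**
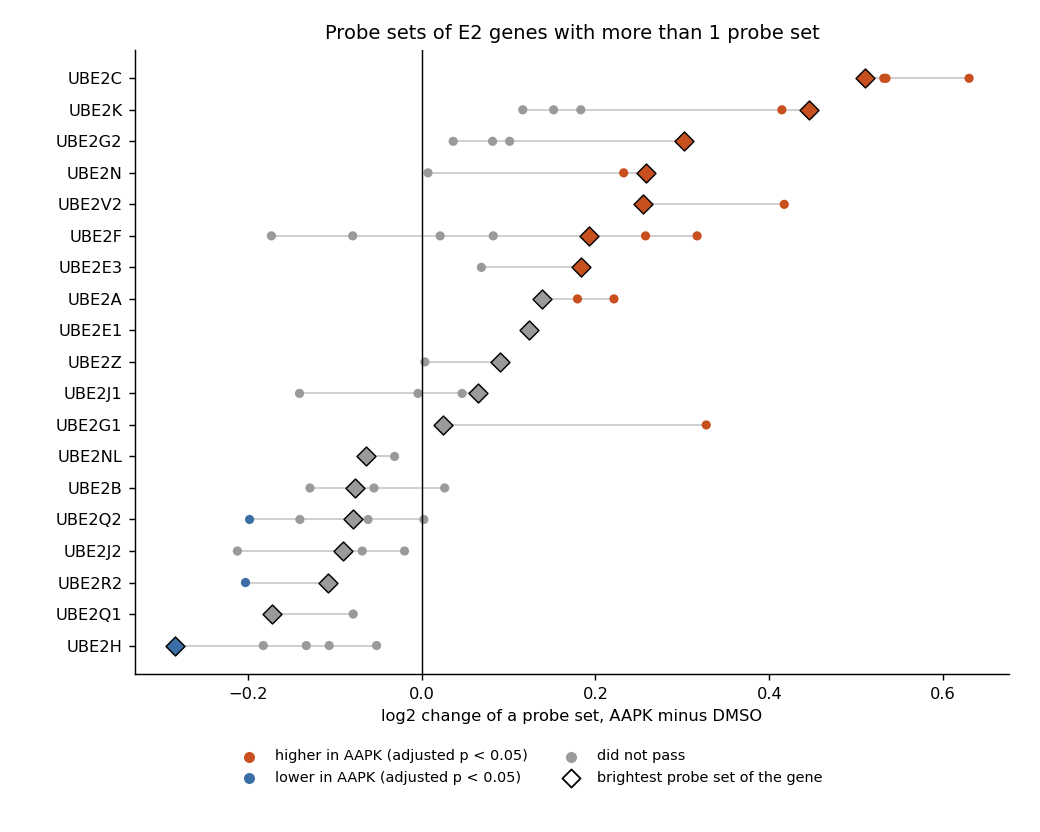
Log2 change of every probe set of the 19 E2 genes with more than 1, AAPK minus DMSO, coloured by the test over all single-symbol probe sets; diamonds mark the brightest probe set of a gene. The 4 UBE2C sets lie together at 0.51 to 0.63, whereas the sets of UBE2F and UBE2J1 lie on both sides of 0.

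Of the 77 E2 probe sets 20 rose and 3 fell, where 7.13% and 5.82% of all single-symbol probe sets did. Of the 19 genes with more than 1 probe set, 15 had all of them on 1 side of 0. The exceptions were UBE2B, UBE2F, UBE2J1 and UBE2Q2.

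The APC/C is the ligase that UBE2C and UBE2S serve. Of its 20 measured subunits and regulators 10 rose, 1 fell and 9 did not pass, where 8.11% of all genes rose and 7.26% fell. With 1 array left out the count that rose was 8 or 9, and the count that fell stayed at 1. The median log2 change was 0.18 beside -0.02 over all genes. CDC20, the activator that brings in substrates, had 9.84, 9.89 and 9.73 on the AAPK arrays, against 9.01, 8.91 and 8.90 on the DMSO arrays, and rose by 0.88 (adjusted p = 5.00e-06). The checkpoint genes BUB1B and MAD2L1, whose products hold CDC20 back, rose by 0.42 and 0.40, and the subunit CDC26 rose by 0.35. The gene that fell was FBXO5, which encodes the APC/C inhibitor EMI1, by 0.21 (adjusted p = 0.0104). ANAPC2 and ANAPC11, the catalytic core that receives the E2 enzyme, were at -0.02 and 0.15, and FZR1, the activator of late mitosis and G1, was at 0.03; these did not pass.

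Of 27 measured genes listed here as APC/C substrates 18 rose, 4 fell and 5 did not pass, with a median of 0.31. The shares over all genes were the same 8.11% and 7.26%. Whether the APC/C marks the product of each listed gene, TYMS included, was not tested. The largest rises were those of CDC20, itself a substrate, of CCNB1, cyclin B1, at 0.86, of ANLN, the cytokinesis protein anillin, at 0.83, and of AURKA at 0.80. Those that fell were RRM2, at -0.39, TK1, CDC6 and TYMS, which serve nucleotide synthesis and DNA replication; they were named here after their values were seen. The count of 4 was 1 without AAPK replicate 1, DMSO replicate 1 or DMSO replicate 3, and 2 without AAPK replicate 2 or AAPK replicate 3. The calls lost were those of TK1, CDC6 and TYMS, at adjusted p from 0.0514 to 0.118, and RRM2 kept its call with any array left out. The RRM2 value is from a probe set ending in _x_at, and its brightest set not so marked was at -0.01 (adjusted p = 0.964). Substrates of mitosis were also among those that did not pass, with AURKB at 0.05, CKAP2 at 0.01, KIF11 at 0.15 and KIF22 at -0.13.

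The other lists of the pathway are read against the same shares, 8.11% higher and 7.26% lower. Of 8 measured E1 enzymes, 1, NAE1, rose and 0 fell by limma, also 1 and 0 at an unadjusted p under 0.05; the count higher was 0 without DMSO replicate 1 or DMSO replicate 2 and 2 without AAPK replicate 3. Of 8 genes with an E2 fold outside the family name 0 rose and 0 fell by limma, with 2 and 0 at an unadjusted p under 0.05. BIRC6 and TSG101, the highest of these 8, were at 0.21 and 0.17 (adjusted p = 0.0859 and 0.0806). UBB, the only ubiquitin gene measured, was at 0.09 and did not pass. Of 11 ubiquitin-like modifiers 2 rose and 1 fell: GABARAPL2, of autophagy, rose by 0.31, NEDD8 as above, and MAP1LC3B, also of autophagy, fell by 0.23. Of 29 measured E3 partners 7 rose and 0 fell by limma (11 and 1 at an unadjusted p under 0.05), with a median of 0.03, and CUL3 was the highest. Of 14 enzymes that remove ubiquitin or its relatives 5 rose and 4 fell. Among the enzymes that remove ubiquitin, USP37, which opposes the APC/C on cyclin A, fell by 0.39 (adjusted p = 3.31e-04), and USP7 rose by 0.32. Some calls of list genes were lost on the probe set with the median change of each gene. They were those of ANAPC16, CDC23, CUL3, FANCL, FOXM1, MAEA, MAP1LC3B, MARCHF6, OTUD7B, SENP1, TOP2A, UCHL5, USP14, USP37 and USP7. Their adjusted p there ran from 0.0512 to 0.805, and the sign turned for CUL3 (-0.04), MAP1LC3B (0.12) and USP14 (-0.03). The call of RRM2 was lost on its brightest probe set not ending in _x_at (-0.01, adjusted p = 0.964).

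**Figure D5:**
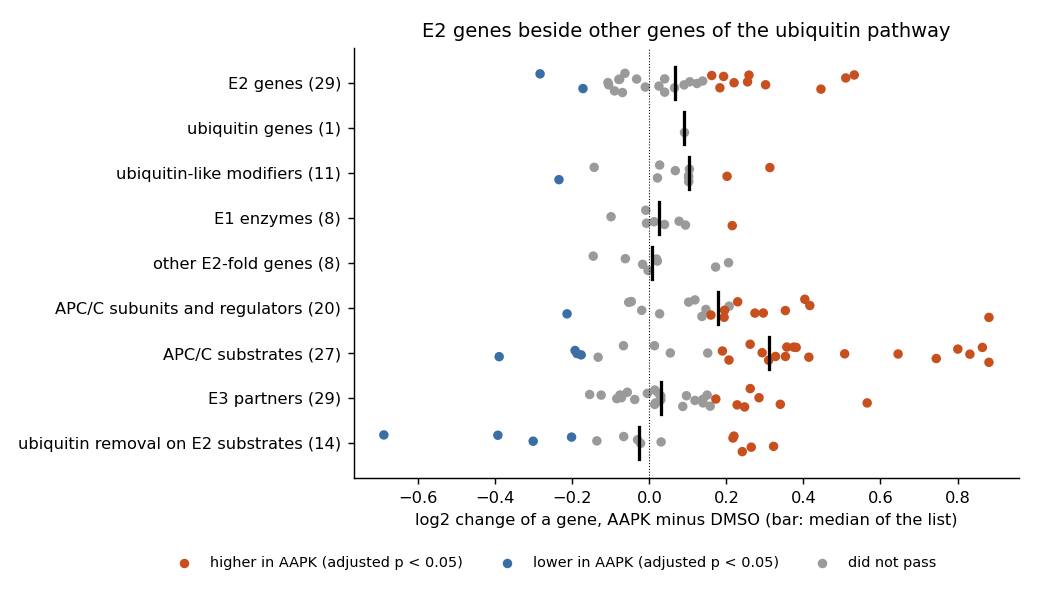
Log2 change of each gene, AAPK minus DMSO, for the E2 genes and 8 lists of the ubiquitin pathway, with the number measured in brackets and the median as a bar. The APC/C subunits and regulators and the APC/C substrates reach equally far to the right, because CDC20 is on both lists. Of the listed substrates 18 of 27 are higher, and the enzymes that remove ubiquitin spread to both sides.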

How the data were processed

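Biotin-labelled RNA, made by in vitro transcription per the labels, was read on Affymetrix arrays whose probe set names are those of the PrimeView design. The authors deposited log2 signal values for 49395 probe sets; log2 was read from their range, and near-equal quartiles show normalisation between arrays. How background was corrected and probes summarised is not given in the sources used here. Such normalisation removes changes shared by most genes. Groups and replicate numbers came from sample titles.

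Of the probe sets, 102 were controls, 44988 named 1 symbol, 1832 several and 2473 none; 44961 had an Entrez identifier in RefSeq GRCh38.p14 and 0 symbols needed an update. The brightest probe set of each of 18132 genes was fitted by group under R 4.3.3 with limma 3.58.1 (moderated statistics, two-sided), adjusting p-values over all genes by Benjamini-Hochberg and a threshold of 0.05. A second fit took all single-symbol probe sets. The number of arrays, 3 per group, limits the precision.

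All members are named, and those past the threshold by 0.25 or more are given on every array. From each list at most the 4 largest changes past the threshold are named. Other list genes were named, after their values were seen, for their tie to an E2 enzyme or for a call lost on another probe set. The members and lists were chosen with earlier results of these data known. Protein sequences were not analysed here. The fit was tested on simulated data. Alternatives were other normalisations, signal filters, probe set rules, variance priors, array weights, a replicate block and leaving out each array; the probe set rule without _x_at sets was added after seeing the data.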

Additional observations from a re-analysis of the deposited data

Results flagged for a closer look

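A probe set that names both UBE2V1 and the readthrough gene PEDS1-UBE2V1, and so was left out of the gene comparison, was higher in AAPK than in the DMSO controls. Its log2 signal was 9.46 ± 0.07 in AAPK and 9.18 ± 0.05 in DMSO (SD, n = 3 each), a change of 0.28 ± 0.05 (limma adjusted p = 0.00634 over all probe sets other than controls). It stands out as a signal outside the main measurement, but the other probe sets naming this pair did not pass. They were at 0.10 (limma adjusted p = 0.376, on sets with identical values) and 0.04 (adjusted p = 0.719). The set that passed cannot say which of the 2 genes it reads.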

How the results depend on the processing

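Of the 12 E2 genes past the threshold, UBE2C, UBE2S, UBE2N and UBE2T kept their calls under all 17 alternatives, and the other 8 lost theirs under at least 1. For UBE2S and UBE2T, with a single probe set each, the probe set alternatives could not alter the signal. Of the 17 that did not pass, 3 did so under some alternative (UBE2A, UBE2G1 and UBE2R2). The count of E2 genes higher was 6 to 8 with 1 array left out. The count lower was 1 with median centring, with averaged probe sets and with a replicate block, 0 on the probe set with the median change, and 1 to 2 with 1 array left out. In the pathway lists the count of distinct genes lower was 10; it was 6 with the replicate block and 6 to 9 with 1 array left out.

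The gap between UBE2C and the other E2 genes changed by 0.49 with the mean of probe sets and 0.48 on those with the median change; that of UBE2S changed by 0.42 with quantile normalisation. UBE2C minus UBE2S was -0.02 in the report and 0.019 with the mean of probe sets. Signs also turned for genes near 0. UBE2QL1 was at 0.0052 with quantile normalisation, 0.0094 with median centring and -0.045 to 0.027 with 1 array left out. UBE2J1 was at -0.0082 with the mean of probe sets and -0.0042 on that with the median change. With 1 array left out UBE2L6 ran from -0.10 to 0.062, UBE2NL from -0.13 to 0.030 and UBE2O from -0.040 to 0.11. The cause of these changes was not tested.

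The labels give both groups replicate numbers 1 to 3. They do not say whether arrays of the same number were paired. Deviations from the group mean correlated at -0.02, -0.23 and -0.05 for same-numbered arrays, and from -0.13 to 0.17 for differently numbered ones. With 3 arrays per group these values cannot decide whether the samples were paired. With the replicate block 7 E2 genes rose and 1 fell, in place of 10 and 2.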

Other observations

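Besides the single-symbol probe sets, 12 probe sets name an E2 gene of the rule together with another gene. Other than the UBE2V1 set flagged above as higher, they did not pass limma's threshold (lowest adjusted p = 0.278), with log2 changes from -0.07 to 0.10, AAPK minus DMSO. They pair UBE2V1 with PEDS1-UBE2V1, UBE2F with DNAAF9, UBE2F-SCLY with SCLY, UBE2CP5 with ZNF587 and UBE2Q2P13 with LOC400464, and 2 of the UBE2V1 sets held the same values.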
